A study of Mus musculus with 18 samples.

Results

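The receptor tyrosine kinase Ros1 and 8 genes of its route and of the ERK output of the initial segment were followed across 18 RNA-seq libraries of the mouse caput epididymis, the first stretch of the duct in which sperm mature. Members were taken by symbol: Ros1, Ovch2, Etv4, Etv5, Etv1, Dusp6, Spry2, Spry4 and Ptpn6. All 9 were found among the 53819 gene entries of the count tables, and all 9 were among the 18618 genes that passed a filter on low counts. The mice were C57BL/6J, with no other allele named in the labels, and fell into 6 groups of 3 libraries. Controls, mice given 6% ethanol (EtOH) and mice given 10% EtOH were collected at 10 weeks, and the same 3 treatments were sampled again after cessation, a period that the series title puts at 1 month. Ages and the route of dosing are not given in the labels used here. The labels do not say that libraries come from separate mice, so p-values measure the spread between these libraries.

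The initial segment is the most proximal part of the caput, and it depends on factors that reach it from the testis through the lumen, which is called lumicrine signalling. In the mouse, NELL2 secreted by testicular germ cells binds ROS1 on the epithelium. ROS1 signalling differentiates the segment and raises the secreted protease OVCH2, which acts in the maturation of the sperm surface protein ADAM3. ERK activity is high in this epithelium, and the PEA3 group of ETS transcription factors (Etv1, Etv4, Etv5) and the feedback inhibitors Dusp6, Spry2 and Spry4 are widely used transcriptional readouts of ERK. Ptpn6 encodes the phosphatase SHP-1, which acts on ROS1 signalling in this epithelium and is also abundant in leukocytes.

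The 10-week libraries held 15599991 to 21067237 assigned reads and the cessation libraries 10719320 to 17197177. Genes of the caput were abundant in every library: Gpx5, a secreted peroxidase of the caput, lay between 16810 and 50756 CPM (each library's counts scaled to its TMM-adjusted total), and Rnase10, a secreted protein of the initial segment, between 1011 and 7544. Within groups, the biological coefficient of variation was 11.7%, 14.5% and 23.1% at 10 weeks (control, 6% and 10% EtOH) and 35.5%, 29.9% and 27.7% after cessation. A pair of libraries stood apart. In control replicate 3 and 6% EtOH replicate 1 after cessation, 13 initial segment genes summed to 13666 and 12420 CPM, against 19700 to 32978 in the other cessation libraries and 23452 to 50091 at 10 weeks. The sums of 8 distal caput genes were also low in the pair, at 36942 and 36030 CPM. They were 62018 to 86130 in the other cessation libraries and 66756 to 100730 at 10 weeks. The sum of 16 immediate early genes separated the times rather than this pair: it was 941 to 2761 CPM in all 9 cessation libraries, with 2761 and 2229 in the pair and 2206 in 6% EtOH replicate 2, and 529 to 730 at 10 weeks. Replicate 1 of 6% EtOH after cessation also carries an identifier in its count table that differs from the one in its label.

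The promoters of 7 members could be matched in RefSeq (build GRCm38.p6). Levels of Ros1, Ovch2, Dusp6, Etv1 and Etv5 moved together across libraries, and the promoters of Etv1 and Etv5 are not shown. The 3 below, of a receptor, its target and an ERK phosphatase, are examples. Each is the 250 bases before the start, and capitals mark the PEA3 letters AGGAAG, read on either strand (CTTCCT on the other strand).
Ros1 promoter, chr10:52195245-52195494, minus strand: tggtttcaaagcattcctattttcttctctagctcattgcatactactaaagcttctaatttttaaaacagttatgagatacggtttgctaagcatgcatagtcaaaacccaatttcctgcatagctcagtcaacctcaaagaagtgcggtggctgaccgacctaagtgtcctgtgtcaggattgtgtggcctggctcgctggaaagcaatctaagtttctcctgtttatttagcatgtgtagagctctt
Ovch2 promoter, chr7:107801180-107801429, minus strand: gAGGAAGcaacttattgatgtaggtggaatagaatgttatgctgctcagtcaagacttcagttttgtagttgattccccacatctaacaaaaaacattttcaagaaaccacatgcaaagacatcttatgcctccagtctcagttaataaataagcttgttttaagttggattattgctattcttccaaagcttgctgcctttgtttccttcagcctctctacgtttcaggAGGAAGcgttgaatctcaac
Dusp6 promoter, chr10:99262981-99263230, plus strand: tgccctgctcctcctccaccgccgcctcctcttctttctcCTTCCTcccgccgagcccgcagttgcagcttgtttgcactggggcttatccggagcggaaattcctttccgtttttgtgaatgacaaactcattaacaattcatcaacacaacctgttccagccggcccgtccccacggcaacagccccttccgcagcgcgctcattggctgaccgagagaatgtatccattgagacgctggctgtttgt
The letters AGGAAG began 249 and 20 bases before the start of Ovch2 and 210 before that of Dusp6, and were not in the window of Ros1. Etv1 and Etv5 have 2 windows each, which makes 9 in all. The letters were in 4 of the 9 (also 1 of the 2 of Etv1 and that of Ptpn6), and in 29.5% of 32851 promoters of the same length. The AP-1 letters TGANTCA were in 0 of the 9 and in 6.75% of all promoters. These matches describe letters and show no binding.

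Ovch2 had the highest level per length of transcript, 789 ± 291 CPM per kilobase (SD over 18 libraries), followed by Etv5 at 112 ± 39.3 and Ros1 at 83.0 ± 21.7. Dusp6 (38.7), Etv4 (17.99), Spry2 (14.03), Ptpn6 (7.62), Etv1 (4.004) and Spry4 (2.003) had lower levels on the same scale. By CPM, Ovch2, Ros1 and Etv5 ranked above 99.7%, 99.1% and 98.6% of tested genes. The highest library exceeded the lowest 5.46-fold for Etv5, 4.68-fold for Ovch2, 3.25-fold for Ros1 and 3.21-fold for Dusp6, but 1.95-fold for Spry2 and 2.09-fold for Spry4. In bulk tissue, fewer initial segment cells and less RNA per cell cannot be told apart.

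Ros1, the receptor, stood at 663, 754 and 607 CPM in the control libraries at 10 weeks, at 683, 769.6 and 699 with 6% EtOH, and at 805, 772 and 1003 with 10% EtOH. After cessation it stood at 515, 781 and 309 CPM in controls, 353, 475 and 592 with 6% EtOH, and 666, 637 and 528 with 10% EtOH. The 10% EtOH libraries at 10 weeks lay above all other libraries of that time, and control replicate 3 after cessation was the lowest of all 18. Group means ran from 473 ± 119 (6% EtOH after cessation) through 535 ± 237 (control), 610.3 ± 72.6 (10% EtOH), 675 ± 74.1 (control, 10 weeks) and 717 ± 46.1 (6% EtOH, 10 weeks) to 860.05 ± 125 CPM (10% EtOH, 10 weeks). Of the 5 neighbouring pairs of groups in this order, only 6% and 10% EtOH at 10 weeks did not overlap.

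Ovch2, the protease known to depend on Ros1, stood at 1408, 1733 and 1104 CPM in controls at 10 weeks, 1655, 1942 and 1893 with 6% EtOH, and 2046, 2087 and 2944 with 10% EtOH. After cessation the values were 1307, 2006 and 629 CPM in controls, 654, 1551 and 1102 with 6% EtOH, and 1316, 1312 and 1065 with 10% EtOH. At 10 weeks the 10% EtOH libraries lay above the 6 others, and the highest was again replicate 3. After cessation, controls spanned both other groups.

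Etv5, the PEA3 factor of highest level here, stood at 558, 617 and 438 CPM in controls at 10 weeks, 467, 604 and 679 with 6% EtOH, and 620.4, 554 and 624 with 10% EtOH. After cessation it stood at 338, 553 and 124 CPM in controls, 148, 394 and 387 with 6% EtOH, and 459.8, 395 and 287 with 10% EtOH. All 9 cessation libraries lay below the 10-week median of 604 CPM, and 7 of 9 lay below the lowest 10-week library. Etv4 ranged from 39.3 to 77.1 CPM at 10 weeks and from 32.9 to 71.1 after cessation. Etv1 ranged from 44.7 to 85.7 and from 27.2 to 65.8 CPM.

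Dusp6, the ERK phosphatase, had the most orderly levels at 10 weeks: 112, 139.6 and 103 CPM in controls, 142, 144 and 148 with 6% EtOH, and 160.3, 159.9 and 179 with 10% EtOH. Each of these groups lay wholly above the one of lower dose, an order that 1 of 9 members (Dusp6) and 1.49% of all tested genes had, against 0 of 9 and 0.0269% after cessation. After cessation the values were 100.2, 133 and 68.3 CPM in controls, 55.7, 117 and 110 with 6% EtOH, and 118, 114 and 77.5 with 10% EtOH, and the groups overlapped. Spry2 (20.6 to 40.2 CPM), Spry4 (5.62 to 11.7) and Ptpn6 (12.2 to 27.3), over all 18 libraries, had overlapping neighbours throughout the order of their groups.

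**Figure D1:**
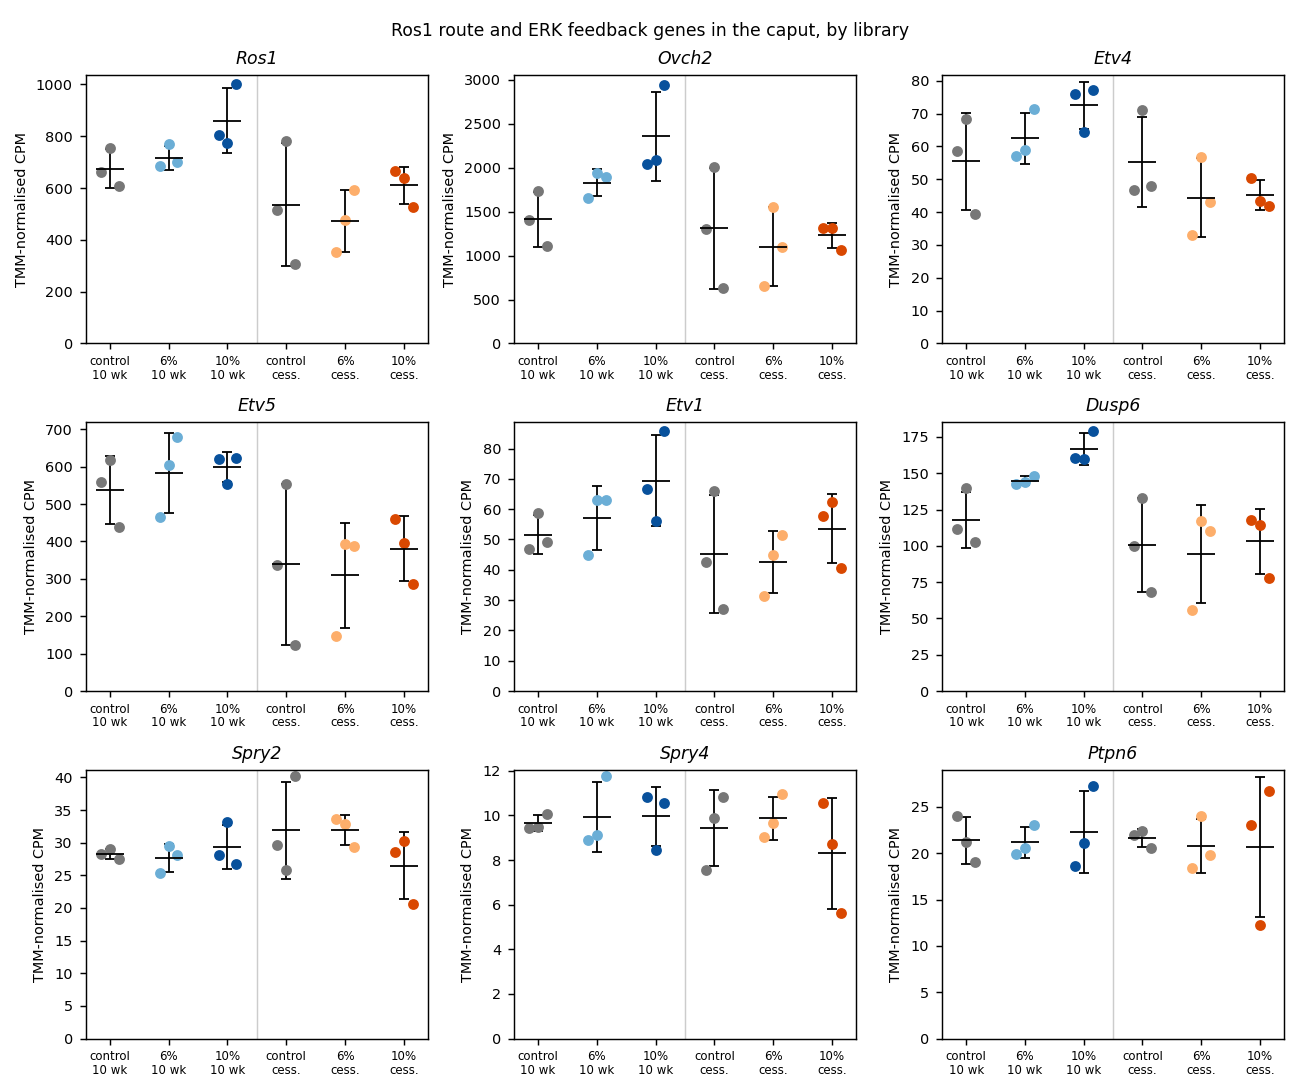
Points are single libraries (TMM-normalised CPM, linear axis from 0), with the mean and SD of 3 libraries in each of 6 groups (cess., after cessation). Dusp6 shows no overlap between doses at 10 weeks, and control replicate 3 and 6% EtOH replicate 1 after cessation are low for Etv5 (124 and 148 CPM).

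The first question was whether EtOH changed these genes at 10 weeks. With 10% EtOH the means of all 9 members lay above control, but 0 of 9 passed edgeR's quasi-likelihood test at an adjusted p under 0.05, against 0% of all tested genes. The log2 fold changes were 0.74 ± 0.34 (SE) for Ovch2 (adjusted p = 0.355), 0.50 ± 0.25 for Dusp6 (0.391) and 0.35 ± 0.25 for Ros1 (0.552). These 3 were the members whose 10% EtOH libraries lay above every control library, as did those of 15.2% of all tested genes. At an unadjusted p under 0.05, 1 of 9 members, Ovch2, and 13.4% of all genes passed edgeR's test. Etv4 (0.39 ± 0.21), Etv1 (0.43 ± 0.27) and Etv5 (0.16 ± 0.41) were above control with overlapping groups, and Spry2, Spry4 and Ptpn6 by 0.05, 0.05 and 0.06. Single libraries moved some of these differences. Without 10% EtOH replicate 3, Ovch2 stood at 0.55, Ros1 at 0.23 and Etv1 at 0.25. That library also had the highest leukocyte sum of its group (626 CPM, against 398 and 467). Its identifier in the label starts with other letters than those of the rest of its group. Without control replicate 3, Etv4 stood at 0.19 and Etv5 at 0.03, and without control replicate 2 Etv5 stood at 0.26. The median of the members was 0.35, and 48.8% of all tested genes lay above 0. The spread of each gene in edgeR's test was estimated over both times together. Variation within groups was 11.7% to 23.1% at 10 weeks and 27.7% to 35.5% after cessation, so p-values at 10 weeks also carry the cessation spread. With only the 9 libraries of that time in the fit, Ovch2 and Dusp6 passed (2 of 9, against 6.17% of all genes), and without a filter on low counts Ovch2 passed (1 of 9, against 2.02%); DESeq2 called 0 members and 73 genes, and limma-voom 0 members.

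With 6% EtOH at 10 weeks, 0 of 9 members passed (0% of all genes; 2.36% at an unadjusted p under 0.05, with 0 members). Ovch2 differed by 0.37 ± 0.34, Dusp6 by 0.29 ± 0.25, Etv4 by 0.17 ± 0.21, Etv1 by 0.14 ± 0.27, Etv5 by 0.12 ± 0.41 and Ros1 by 0.09 ± 0.25. Dusp6 was the member whose groups did not overlap, against 9.67% of genes not overlapping in that direction. The means of control, 6% and 10% EtOH followed the dose in 7 of 9 members, and in 25.8% of all tested genes. Between 10% and 6% EtOH 0 of 9 members passed at an adjusted or unadjusted p under 0.05 (0% and 2.83% of all genes), with log2 differences of 0.37 ± 0.34 for Ovch2, 0.26 ± 0.25 for Ros1 and 0.20 ± 0.25 for Dusp6; their groups did not overlap, as for 7.22% of genes in that direction. DESeq2 and limma-voom called 0 members in either comparison. These comparisons share libraries.

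After cessation, 0 of 9 members passed edgeR's test in either EtOH group (0% of all genes for both), and 0 of 9 at an unadjusted p under 0.05, against 1.62% of all genes with 6% and 6.66% with 10% EtOH. DESeq2 and limma-voom also called 0 members. Without control replicate 2, 0.985% of genes passed for 10% EtOH after cessation, with 0 members. With 6% EtOH, Ros1 differed from control by -0.18 ± 0.25, Ovch2 by -0.25 ± 0.34 and Etv4 by -0.32 ± 0.21. With 10% EtOH, Ros1 differed by 0.19 ± 0.25, Etv1 by 0.25 ± 0.27, Ovch2 by -0.09 ± 0.34, Etv4 by -0.29 ± 0.21 and Spry2 by -0.27 ± 0.16. All members' groups overlapped in both comparisons, while 4.01% and 6.46% of genes did not overlap. The order of means by dose was found in 0 of 9 members after cessation, and in 16.3% of genes. The difference between the effect of 10% EtOH after cessation and at 10 weeks was -0.83 ± 0.48 for Ovch2 (adjusted p = 0.722) and -0.68 ± 0.30 for Etv4 (0.665); that of 6% EtOH was -0.62 ± 0.48 and -0.49 ± 0.30. Of these differences 0 of 9 passed for either dose (0% of all genes); at an unadjusted p under 0.05, 1 of 9 did for 10% EtOH, Etv4 (7.44% of all genes), and 0 of 9 for 6% EtOH (3.01%).

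**Figure D2:**
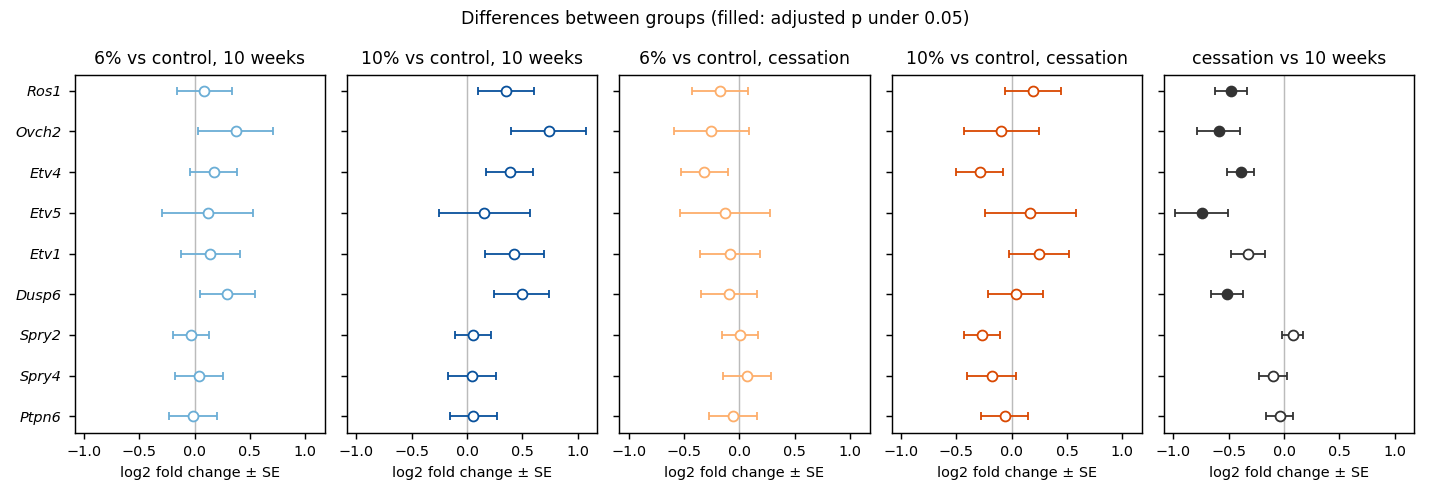
Points are log2 fold changes of each member with their standard errors in 5 comparisons, filled where the adjusted p was under 0.05. Filled points are found in the comparison of times, for Ros1, Ovch2, Etv4, Etv5 and Dusp6 (-0.39 to -0.75).

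The cessation libraries were then compared with those of 10 weeks, as a mean over the 3 treatments. The receptor, its protease, a pair of PEA3 factors and Dusp6 were lower after cessation: the log2 fold change was -0.48 ± 0.15 for Ros1 (adjusted p = 0.0349), -0.59 ± 0.19 for Ovch2 (0.0448), -0.75 ± 0.24 for Etv5 (0.0420), -0.39 ± 0.12 for Etv4 (0.0382) and -0.51 ± 0.14 for Dusp6 (0.0273). Thus 5 of 9 members passed as lower, against 7.21% of all tested genes lower (10.7% higher, 17.9% in either direction). The median of the members was -0.39 against 0.05 for all genes. Etv1 differed by -0.33 ± 0.16 (0.136), Spry2 by 0.08 ± 0.09 (0.565), Spry4 by -0.10 ± 0.13 (0.575) and Ptpn6 by -0.04 ± 0.12 (0.840). The 2 sets of 9 libraries overlapped for every member; they did not overlap for 0.451% of genes. Below the lowest 10-week library lay 7 of 9 cessation libraries for Etv5, 6 for Ros1, 4 each for Ovch2, Dusp6 and Etv1, and 1 for Etv4. Collection time, age and any difference in handling cannot be told apart here.

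These calls rested on single libraries. No member passed without replicate 2 of the 10-week controls, 3 of 6% EtOH or 1 of 10% EtOH at 10 weeks, or without control replicate 1 or 3 or 10% EtOH replicate 3 after cessation, and 1.32% to 2.68% of all genes then passed as lower. Only Dusp6 passed without replicate 1 of the 10-week controls, 2 of 6% EtOH or 2 or 3 of 10% EtOH at 10 weeks, or without 6% EtOH replicate 1 or 10% EtOH replicate 2 after cessation, beside 2.83% to 7.64% of all genes. Without any of the other 6 libraries, 4 to 6 passed, beside 5.27% to 13.5% of all genes; Ovch2 was lost without 6% EtOH replicate 1 at 10 weeks or 6% EtOH replicate 3 after cessation, and Etv1 was added without control replicate 2 after cessation. The log2 differences kept their sign, from -0.93 to -0.61 for Etv5, -0.74 to -0.47 for Ovch2, -0.60 to -0.44 for Dusp6, -0.61 to -0.38 for Ros1 and -0.47 to -0.34 for Etv4. Without both of the libraries that stood apart, an alternative chosen after seeing the data, 1 member passed as lower (Etv5, -0.52), against 1.09% of all genes, and the differences were -0.34 for Ros1, -0.41 for Ovch2, -0.37 for Dusp6 and -0.32 for Etv4. Within the controls alone the differences were -0.33 for Ros1, -0.11 for Ovch2, -0.67 for Etv5, -0.23 for Dusp6 and -0.01 for Etv4, within 6% EtOH -0.60, -0.73, -0.92, -0.62 and -0.49, and within 10% EtOH -0.49, -0.94, -0.66, -0.69 and -0.68; 0 members passed in any of these, and no more than 0.188% of all genes did.

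Levels of the route and of the PEA3 and Dusp6 readouts followed that of Ros1 from library to library. The share of all tested genes with such correlations was not computed, so the values do not set these members apart from other genes. Over 18 libraries, Pearson's r of log2 CPM with Ros1 was 0.94 for Etv1 (Spearman's rho 0.88), 0.94 for Etv5 (0.89), 0.92 for Ovch2 (0.92), 0.91 for Dusp6 (0.91) and 0.72 for Etv4 (0.84). The largest adjusted permutation p of these r was 0.00072, over 8 relations, and the smallest p that the permutations can give is 1e-05. Libraries were permuted freely across groups and times, so these p-values also take in the difference between times. Without the 2 libraries farthest from the median of Ros1, which are the pair that stood apart, r was 0.86 for Etv1, 0.83 for Etv5, 0.82 for Ovch2, 0.83 for Dusp6 and 0.73 for Etv4. Within 10 weeks (n = 9, exact permutation test) r was 0.95 for Ovch2, 0.88 for Etv1, 0.87 for Dusp6, 0.76 for Etv4 and 0.59 for Etv5, and within cessation 0.87, 0.97, 0.85, 0.52 and 0.95. The adjusted p of Etv4 was 0.0567 and 0.202 within the times, and that of Etv5 0.157 within 10 weeks. Spry2 ran the other way (r = -0.51, rho = -0.47, adjusted permutation p = 0.0456 and 0.0644), and r rested on the pair: without it r was -0.01 and rho -0.25. Within cessation the exact permutation test gave Spry2 an r of -0.64 (adjusted p = 0.0964) and a rho of -0.77 (0.0428). Spry4 (r = 0.16, rho = 0.17) and Ptpn6 (r = 0.14, rho = 0.16) had no adjusted permutation p under 0.05 over all libraries. Without the pair r was 0.44 for Spry4, and within 10 weeks it was 0.51 for Ptpn6, neither past the threshold.

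**Figure D3:**
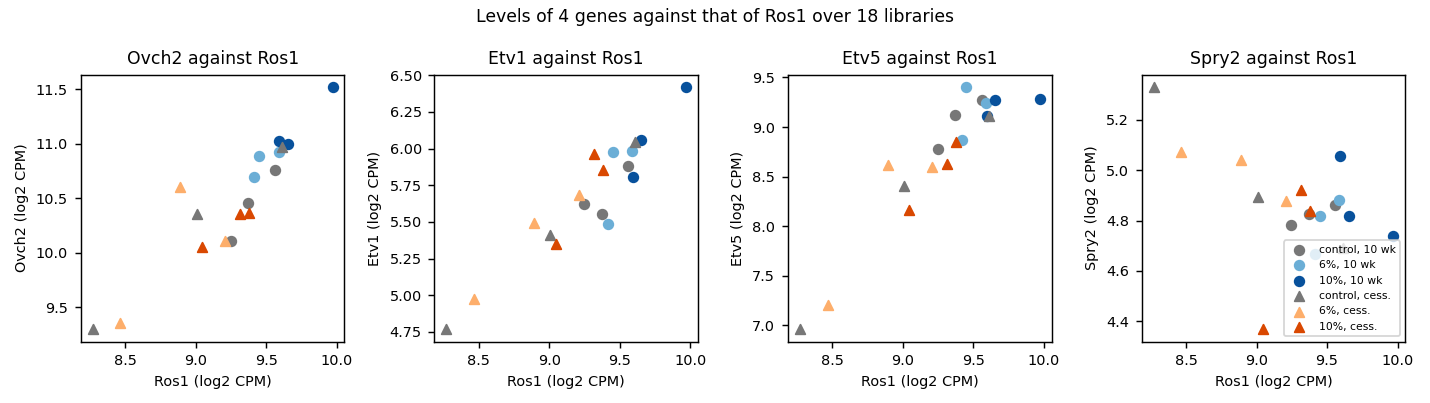
Each point is a library, with log2 CPM of Ros1 on the x axis and of Ovch2, Etv1, Etv5 or Spry2 on the y axis (circles, 10 weeks; triangles, cessation). Ovch2, Etv1 and Etv5 rise with Ros1 (r = 0.92, 0.94 and 0.94), while r of Spry2 rests on the 2 libraries of lowest Ros1.

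Among the genes whose centred log2 profile was nearest to that of Ros1 were Stt3b, a subunit of the oligosaccharyltransferase (root mean square difference 0.08 over 18 libraries), Sc5d, an enzyme of sterol synthesis (0.09), Cab39 (0.09) and Stim2, a calcium sensor of the endoplasmic reticulum (0.10). The median over 13127 compared genes was 0.45. Etv1 ranked 42nd by this measure, Dusp6 159th, Ovch2 713th, Etv4 1579th and Etv5 2289th. The measure is not scaled for spread, so a gene that follows Ros1 with wider swings ranks farther away. The root mean square of centred log2 CPM was 0.67 for Etv5 and 0.41 for Ros1. Nearest to Etv5 were Ntsr1, the neurotensin receptor (0.13), Asb18 (0.13), St3gal2 (0.14), Gcnt4 (0.14) and the amino acid transporter Slc7a5 (0.14).

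Of the ligand and protease route, Nell2, the ligand made in the testis, was at or near 0 in the caput, with group means of 0.14 to 0.76 CPM. Adam3, a sperm gene, was higher after cessation (0.97 ± 0.28, adjusted p = 0.0289), with group means of 1.93 to 3.16 CPM at 10 weeks and 3.48 to 6.72 after it. Adam28, a protease of the initial segment, differed by -0.62 ± 0.22 (0.0602). The call of Adam3 was kept in 11 of 18 fits that each left out 1 library. Of 10 germ cell genes, 6 rose with time and 0 fell, with summed levels of 114 to 220 CPM at 10 weeks and 153 to 364 after cessation. The sums were 364 and 343 in the pair that stood apart. After cessation they were also 317 in 10% EtOH replicate 3 and 311 in 6% EtOH replicate 3.

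Most secretory genes of the initial segment lay lower after cessation, as most members did. Of 13, 7 passed edgeR's test as lower and 0 as higher, against 7.21% and 10.7% of all tested genes. The median was -0.58, with a range from -0.85 to 1.07, and 2 of 13 lay above 0. Among those that fell were Rnase10 (-0.85 ± 0.25, adjusted p = 0.0320), Srd5a1, which makes dihydrotestosterone (-0.74 ± 0.20, 0.0258), and Mfge8, a secreted milk fat globule protein (-0.66 ± 0.18, 0.0271). Without any of the 12 libraries named above that left 0 or 1 member past the test, 0 to 4 of the 13 fell, and without the others 5 to 9; without both of the pair, 2 fell. With 10% EtOH at 10 weeks, 0 of 13 passed, 10 lay above control, and the median was 0.56 (0.37 without control replicate 3). The log2 fold changes ran from -1.30 to 0.85. For 9 genes the 10% EtOH libraries lay wholly above control, and for 2 wholly below, against 15.2% and 15.5% of all tested genes. Cst8 (0.82 ± 0.34), Cst11 (0.82 ± 0.35) and Adam28 (0.85 ± 0.38) did not pass edgeR's test (adjusted p of 0.322 to 0.353). The 7 tested genes of the distal caput had a median of 0.62 in that comparison with 0 passing, and of -0.32 with time, where 1 (Lcn6, a lipocalin) fell.

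Transcripts of the kinase cascade were read next. Of 21 ERK cascade genes, 1 was higher after cessation, the scaffold Ksr1 (0.99 ± 0.25, adjusted p = 0.0207), and 1 lower, Araf (-0.25 ± 0.08, 0.0344); the median was -0.14. Leaving out a library moved these counts to 0 to 2 higher and 0 to 6 lower, with 6 lower without control replicate 2 after cessation. Ksr1 kept its call in 16 of 18 fits that left out 1 library, all but those without 6% EtOH replicate 1 or 10% EtOH replicate 3 after cessation, and Araf in 7. Of 16 genes of receptor tyrosine kinases and SRC input, 2 rose and 4 fell, against 10.7% and 7.21% of all tested genes. Among those that fell were the receptors Igf1r (-0.40 ± 0.10, 0.0213), Met (-0.38 ± 0.11, 0.0279) and Erbb3 (-0.47 ± 0.14, 0.0299), with calls kept in 17, 11 and 8 of those 18 fits. Leaving out a library moved the number of this list that fell to 0 to 6, with 0 without 10% EtOH replicate 3 after cessation. With 10% EtOH at 10 weeks 0 of either list passed; Met (0.69 ± 0.19) and Mapk3, which encodes ERK1 (-0.45 ± 0.14), differed at adjusted p = 0.299.

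Other ERK output genes did not share one direction. Of 16 tested, 5 rose and 3 fell after cessation (median -0.09). Maff, a small basic leucine zipper factor (3.12 ± 0.42, adjusted p = 9.03e-04), and Myc (2.02 ± 0.35, 0.00610) rose, and both calls were kept without each library in turn. Of 16 immediate early genes, 15 rose and 1 fell, with a median of 2.22; 15 rose without each library in turn and without both of the pair. The cessation libraries, lower for Ros1, Ovch2, Etv4, Etv5 and Dusp6, were therefore higher for most immediate early genes. With 10% EtOH at 10 weeks the immediate early genes had a median of -0.32 (-0.51 without control replicate 1 and -0.11 without control replicate 3) and the other ERK outputs of 0.03, with 0 passing.

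Markers of other cells were read beside these results. Of 10 ciliated cell genes of the efferent ducts, 5 rose with time and 0 fell (median 0.92). Their sum was 35.5 to 109 CPM at 10 weeks and 37.4 to 351 after cessation. It was 147 and 351 in the pair that stood apart and 136 in 6% EtOH replicate 2 after cessation, and 0 passed without that pair. Of 8 smooth muscle genes 6 rose (median 1.14), of 15 leukocyte genes 2 rose, and of 8 adipocyte genes 0 passed, beside 10.7% of all tested genes that rose. The smooth muscle genes ran from -0.59 to 1.47, with 7 of 8 above 0. Their sum did not separate the times, at 1550.9 to 2304.4 CPM at 10 weeks and 1430.9 to 2345.5 after cessation. Without both of the pair 0 passed in each of the smooth muscle, leukocyte and adipocyte lists and among the germ cell genes. With 10% EtOH at 10 weeks, 15 of 15 leukocyte genes lay above control (median 0.51) and 2 of 10 ciliated cell genes did (median -0.58), with 0 passing. Without 10% EtOH replicate 3 these medians were 0.24 and -1.01. Leaving out single libraries moved the counts that rose with time to 0 to 6 for ciliated cells (0 without control replicate 3 or 6% EtOH replicate 1 after cessation), 3 to 7 for germ cells (3 without either), 2 to 7 for smooth muscle (2 without that 6% EtOH library) and 0 to 7 for leukocytes (0 without either). Ptprc, the pan-leukocyte gene, had group means of 8.91 to 17.3 CPM at 10 weeks and 12.1 to 21.1 after cessation, while those of Ptpn6 lay between 20.7 and 22.3 over all 6 groups. The part of these markers in the members' differences was not tested.

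**Figure D4:**
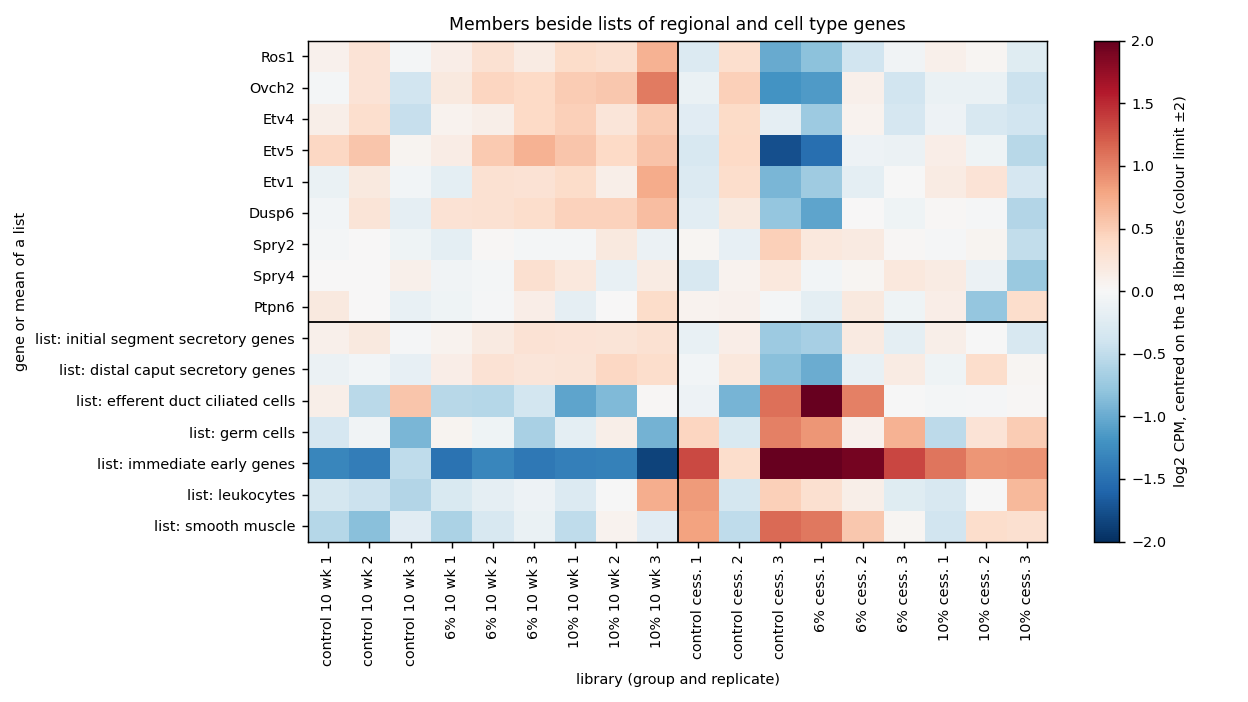
Rows are the 9 members and the means of 7 gene lists, columns the 18 libraries, and colour is log2 CPM centred on the 18 libraries. Control replicate 3 and 6% EtOH replicate 1 after cessation are blue for Ros1, Ovch2, Etv5, Etv1, Dusp6 and the initial segment list. They are also blue for the distal caput list (-0.83 and -0.99). They are red for the germ cell, ciliated cell and smooth muscle lists, and paler red for leukocytes. The immediate early list is above 0 in all 9 cessation libraries.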

How the data were processed

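RNA of the mouse caput was counted in 18 libraries, 3 in each of 6 groups taken from the labels. The authors deposited unnormalised read counts for every gene, 1 table a library. Their processing notes in the labels name STAR, Trimmomatic and featureCounts and the build GRCm39 (mm39). Versions, annotation and strand setting are not stated there, so Ptpn6, which overlaps Gm20531 on the opposite strand in GENCODE, could hold reads of both. The filterByExpr function of edgeR, set to a minimum count of 10 and a minimum total of 15, kept 18618 genes and at least 99.7% of the counts of each library, and scaled by TMM (factors 0.914 to 1.20). Tests used edgeR 4.0.16 (R 4.3.3), robust quasi-likelihood, 1 term per group over all 18 libraries, with Benjamini-Hochberg adjustment over all tested genes, two-sided, at 0.05; the test was checked on simulated data. Time was tested as the mean over the 3 treatments. Correlations and likeness used log2 CPM with a prior count of 0.5, and likeness was limited to genes averaging at least 1 on that scale; correlations were tested with 1e+05 permutations, exactly within each time. Levels per kilobase used exon lengths of GENCODE on GRCm38, and promoters are RefSeq's.

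The members and lists were chosen with earlier results of these data known. From each list the 3 genes of smallest p in a comparison could be named, and for Ros1 and Etv5 the 5 of nearest profile, of which 1 is not reported here. Nicol1 was not matched and is not analysed here; Fosl1, at 0 in all 10-week libraries, is given no fold. Alternatives were no filter, RLE factors, DESeq2 1.42.0, limma-voom 3.58.1, a fit of 1 time alone and leaving out each library.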

Additional observations from a re-analysis of the deposited data

How the results depend on the processing

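No paired analysis was possible because the labels give an identifier for each library but no pairing. The replicate numbers used in the text follow the order of the libraries in the series and are not in the labels. Over 1308 fold changes recomputed for the genes named, 1105 kept their direction and side of the threshold, 171 lost the call, 13 gained it and 19 reversed. Most of the 1308 had no call to lose, so the 1105 include those that stayed uncalled. All calls were in the comparison of times, and 113 of the 171 were lost when 1 library was left out. Of 18 such fits, Dusp6 kept its call in 12, Ros1, Etv4 and Etv5 in 6 each, and Ovch2 in 4. Lower after cessation were 0 to 6 members when each library was left out, 1 without both low cessation libraries, and 0 within the controls, 0 within 6% EtOH and 0 within 10% EtOH; RLE factors, DESeq2 and limma-voom gave 5, beside 7.74%, 10.6% and 7.51% of all genes as lower, and no filter gave 6, beside 4.36%. For 10% EtOH at 10 weeks, no filter gave 1 and the 9 libraries of that time 2. The cause was not tested. For the remaining comparisons no member passed under any alternative run.

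Correlations with Ros1 that changed were those of Etv4 (0.76 within 10 weeks, 0.52 within cessation), Etv5 (0.59 within 10 weeks), Spry2 (0.062 within 10 weeks, -0.64 within cessation, -0.012 without the 2 libraries farthest from the median), Spry4 (-0.031 within cessation) and Ptpn6 (-0.030 within cessation). Reversed signs, none of them past the threshold, were those of Ovch2 for 10% EtOH after cessation with limma-voom (0.057), of Ros1 (-0.085) and Etv1 (-0.015) in that comparison without both low libraries, and with time of Spry2 without both low libraries (-0.017) and within 10% EtOH (-0.15), and of Ptpn6 (0.016) and Met (0.036) within controls. Leaving out a library reversed, for 6% EtOH at 10 weeks, Etv4 (-0.025 to 0.35) and Etv5 (-0.011 to 0.25); for 6% EtOH after cessation, Ros1 (-0.45 to 0.20) and Ovch2 (-0.59 to 0.19); for 10% EtOH after cessation, Ros1 (-0.082 to 0.57), Ovch2 (-0.42 to 0.35) and Etv1 (-0.011 to 0.62); and with time, Ptpn6 (-0.12 to 0.045). Over all tested genes, the count with time was 850 to 5811 when a library was left out, and that for 10% EtOH after cessation 0 to 191. Without a filter, genes past the threshold were 44 and 736 for 6% and 10% EtOH at 10 weeks, 51 and 407 after cessation, 60 and 585 between the doses, and 88 and 385 for the differences between times, against 0 in each; DESeq2 gave 0, 73, 1, 0, 0, 1, 0 and 2. With 3 libraries a group, small differences cannot be seen.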
